A study of Mus musculus with 8 samples.

Results

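The genes described here are 7 mouse members of the MS4A family: Ms4a4d, Ms4a4b, Ms4a4c, Ms4a6b, Ms4a6c, Ms4a6d and Ms4a7. They were taken as every probe set annotated to a single one of these symbols, which gave 14 of the 45101 probe sets and 7 of the 18194 named genes. The symbols were chosen on the difference between mutant and control arrays in these same values, so that difference is given for them as a description, with no test. RNA came from microvessel fragments that were pulled from dissociated newborn brains with beads against PECAM, an endothelial surface protein, and that kept their pericytes. The 4 mutant arrays came from brains of genotype PDGFRb (D849V), a knock-in change that the labels place in pericytes and that keeps PDGF receptor beta, a receptor of pericytes, signalling without ligand. The 4 control arrays came from wild type brains; all 8 samples were from postnatal day 1 and from a mixed 129S/J background. Whether the allele was heterozygous, and what switched it on, is not given in the sources used here. Each array is labelled as a separate biological replicate.

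MS4A proteins cross the membrane several times and are mostly found on blood cells, where some are parts of receptor complexes. Ms4a1 encodes CD20 of B cells and Ms4a2 a chain of the IgE receptor of mast cells. The Ms4a6 genes and Ms4a7 are read in macrophages and related myeloid cells, and Ms4a7 is used as a marker of the macrophages at the borders of the brain. Ms4a4b is best known from T cells. The mouse genes lie in a single cluster on chromosome 19 and many arose as tandem copies, so probes for close copies can share target sequence.

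The stretches just before the start sites are shown because neighbouring members keep parts of them in common. They are the 250 bases upstream of the annotated start in RefSeq, build GRCm38.p6, written 5′ to 3′. For Ms4a4c with Ms4a4b and for Ms4a6c with Ms4a6b, capitals mark the longest run of letters that both members of the pair share. Ms4a4d, the member with the largest difference, is shown in lower case throughout.

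Ms4a4d, chr19:11536544-11536793, + strand: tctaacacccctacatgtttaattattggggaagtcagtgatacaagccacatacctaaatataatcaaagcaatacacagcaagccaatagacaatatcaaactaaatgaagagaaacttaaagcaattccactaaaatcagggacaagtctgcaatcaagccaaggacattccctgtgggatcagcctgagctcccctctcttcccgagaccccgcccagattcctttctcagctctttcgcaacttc
Ms4a4c, chr19:11407411-11407660, + strand: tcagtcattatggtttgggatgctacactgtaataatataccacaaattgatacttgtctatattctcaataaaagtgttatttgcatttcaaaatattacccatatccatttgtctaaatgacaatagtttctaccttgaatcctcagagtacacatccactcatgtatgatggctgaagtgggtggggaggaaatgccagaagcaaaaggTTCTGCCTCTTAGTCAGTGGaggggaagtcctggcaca
Ms4a4b, chr19:11443308-11443557, + strand: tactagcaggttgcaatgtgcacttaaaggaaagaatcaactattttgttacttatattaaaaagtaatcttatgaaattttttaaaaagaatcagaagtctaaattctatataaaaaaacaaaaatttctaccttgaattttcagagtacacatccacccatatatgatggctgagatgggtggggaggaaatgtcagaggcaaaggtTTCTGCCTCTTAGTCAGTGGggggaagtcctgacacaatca
Ms4a6c, chr19:11469118-11469367, + strand: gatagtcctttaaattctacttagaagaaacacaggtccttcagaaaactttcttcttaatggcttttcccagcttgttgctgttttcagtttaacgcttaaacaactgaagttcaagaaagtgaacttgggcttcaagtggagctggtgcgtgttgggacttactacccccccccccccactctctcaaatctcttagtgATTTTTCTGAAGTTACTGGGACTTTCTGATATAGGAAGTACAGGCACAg
Ms4a6b, chr19:11518309-11518558, + strand: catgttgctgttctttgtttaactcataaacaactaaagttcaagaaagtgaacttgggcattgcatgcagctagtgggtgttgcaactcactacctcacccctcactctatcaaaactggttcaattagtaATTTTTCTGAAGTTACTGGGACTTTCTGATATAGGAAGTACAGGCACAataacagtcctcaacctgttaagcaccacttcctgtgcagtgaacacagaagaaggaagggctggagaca

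The Ms4a6c and Ms4a6b windows shared a run of 48 bases, which began 49 bases before the start of Ms4a6c and 118 bases before that of Ms4a6b. Ms4a4c and Ms4a4b shared 20 bases, which began 38 and 41 bases before their starts. In the other 18 pairs of windows from different members the longest shared run was 6 to 9 bases. RefSeq windows were found for 6 of the 7 members, with 7 windows in all, and not for Ms4a6d. Each window of 300 bases, 250 before and 50 after the start, was searched on both strands for the core of the interferon-stimulated response element (GAAA, any 2 bases, GAAA), TTCNNNGAA (the site read by STAT dimers) and GAGGAAGT (a site of the myeloid factor PU.1). A joint site of ETS and IRF factors (GGAA, any 2 bases, GAAA), which can overlap the others, was added after these had been searched. None of the 4 motifs occurred in the 7 member windows. Of all 32851 windows, 3.44%, 8.3%, 3.2% and 2.72% held them, and of the 19 windows of the whole MS4A family 1, 1, 0 and 0.

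The arrays carried the cell types that the labels name. All 12 endothelial and all 12 pericyte markers were bright enough to test, with list means of 11.63 to 12.38 and 9.81 to 10.26 on the log2 scale over the 8 arrays. Values are log2 GCRMA values, which run from a floor of 2.18 up to 16.49, and those under 4 are treated here as not resolved. Pearson correlations between arrays over all probe sets were 0.988 to 0.995 within the groups and 0.977 to 0.991 between them. Testing 11446 genes with limma, at a Benjamini-Hochberg adjusted p under 0.05, called 524 of them (4.58%): in the mutants 304 rose (2.66%) and 220 fell (1.92%). With the replicate number as a block 221 rose and 38 fell, and with each array centred on the median of the tested genes 336 rose and 115 fell. The median of all their differences was -0.11. Of Pdgfrb, the gene that carries the substitution, the brighter probe set fell by 1.01 (SE 0.115, limma adjusted p = 0.00132); a substitution need not change the amount of transcript, so this does not check the labels.

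Of the 7 members, 6 had a probe set that was resolved on all 4 mutant arrays and brighter there than on all 4 control arrays; Ms4a4b was resolved on mutant arrays 1 to 3 only. The differences ran from 2.05 for Ms4a7 to 9.32 for Ms4a4d on the log2 scale. In the Ms4a4 genes the control arrays were unresolved, whereas Ms4a6b, Ms4a6c, Ms4a6d and Ms4a7 were measured in both groups and stood 4.13-fold to 7.31-fold higher in the mutants. Mutant array 4 gave the lowest mutant value of all 10 bright member probe sets. All mutant values lay above all control values in 4.07% of the tested genes and in 3.27% of the 22310 tested probe sets. The 6 members and 9 member probe sets that were bright enough to test were all called higher by limma, against 2.66% of the tested genes and 1.85% of the tested probe sets. This contrast was used to choose the members, and nothing is read from these counts. Ms4a4d and Ms4a4c passed the filter on dim genes through the mutant arrays alone, and Ms4a4b, above 4 on 3 arrays, did not pass it.

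**Figure D1:**
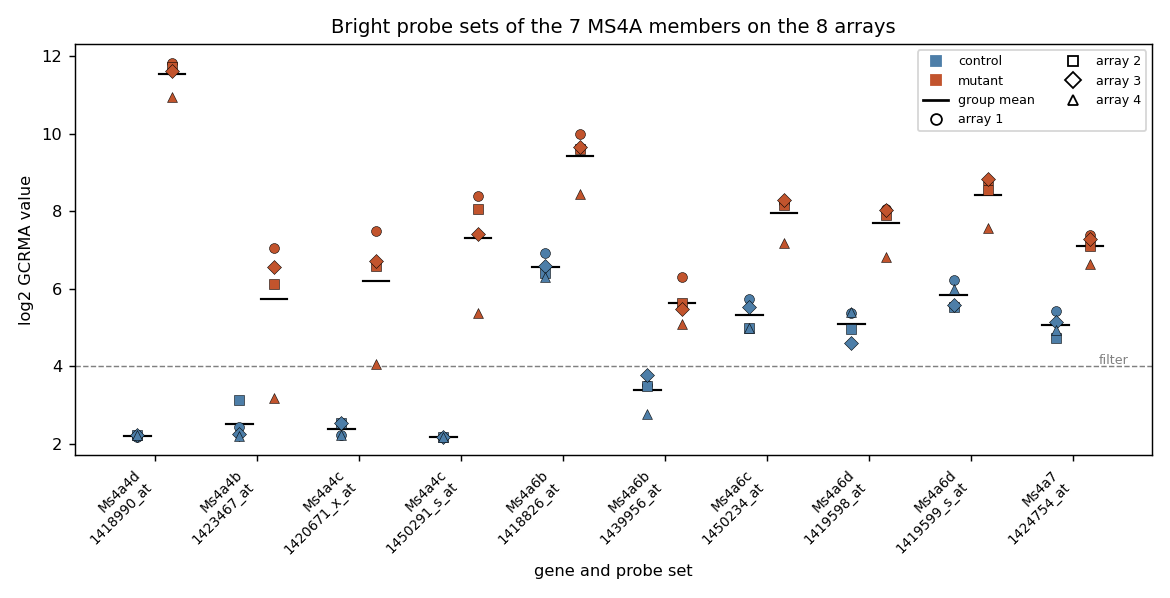
Log2 GCRMA values of the 10 bright member probe sets on the 4 control (blue) and 4 mutant (orange) arrays, with a marker shape for each array number and a line at each group mean; the dashed line is the filter at 4. Mutant values lie above control values for every probe set, for Ms4a4b on mutant array 4 only under the filter, and mutant array 4 (triangle) is the lowest mutant value of each.

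Ms4a4d, whose function is little known, read 11.83, 11.73, 11.61 and 10.95 on mutant arrays 1 to 4 and 2.18, 2.22, 2.22 and 2.22 on control arrays 1 to 4. It was thus bright on every mutant array and at the floor on every control array. With the controls set to the filter level of 4, the mutant mean of 11.53 ± 0.39 (SD, n = 4) was at least 185-fold higher. Without mutant array 4 the fitted difference was 9.51 in place of 9.32.

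Ms4a4c, a close copy next to Ms4a4b that is expressed in leukocytes, read 8.38, 8.05, 7.41 and 5.37 on mutant arrays 1 to 4 on its brighter probe set and 2.18 on every control array. Its other probe set read 7.49, 6.59, 6.71 and 4.06 against 2.23, 2.54, 2.54 and 2.23. Both put mutant array 4 well below the other mutant arrays, by 2.58 and 2.87 from their mean, and both left the controls unresolved. The mutant means were at least 9.87-fold and at least 4.64-fold above the filter level, and without mutant array 4 at least 15.4-fold and at least 7.63-fold. The suffixes of these probe sets (_s_at and _x_at) mark probes that may read several similar transcripts, so their signal cannot be assigned to Ms4a4c alone.

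Ms4a4b read 7.06, 6.12, 6.56 and 3.19 on mutant arrays 1 to 4 and 2.43, 3.14, 2.24 and 2.2 on control arrays 1 to 4. It was resolved on mutant arrays 1 to 3 only; the value of mutant array 4 lay under the filter beside that of control array 2. The mutant mean of 5.73 ± 1.74 (SD, n = 4) was at least 3.32-fold above the filter level, and at least 5.98-fold without mutant array 4. Its SD was the largest among the bright member probe sets, which had mutant SDs from 0.33 to 1.74. The second probe set of Ms4a4b read 2.19 to 2.44 on all arrays.

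Among the members measured in both groups, Ms4a6b was the most changed. Its brighter probe set read 9.98, 9.6, 9.66 and 8.44 on mutant arrays 1 to 4 and 6.92, 6.4, 6.59 and 6.29 on control arrays 1 to 4, a 7.31-fold difference (2.87, SE 0.316). The lowest mutant value lay above the highest control value, and the dimmer probe set, unresolved in the controls, was at least 3.09-fold higher. Ms4a6c read 8.2, 8.16, 8.29 and 7.18 against 5.74, 4.98, 5.53 and 4.98, a 6.26-fold difference (2.65, SE 0.282). Ms4a6d read 8.72, 8.54, 8.82 and 7.57 against 6.23, 5.53, 5.57 and 6, a 5.97-fold difference (2.58, SE 0.29). For each of these genes the groups were apart and mutant arrays 1 to 3 lay close together above mutant array 4.

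A separate probe set of Ms4a6d without a suffix for shared transcripts gave nearly the same difference, 2.61 (SE 0.31). Ms4a7, the marker of border macrophages, read 7.38, 7.11, 7.27 and 6.63 on mutant arrays 1 to 4 and 5.43, 4.72, 5.13 and 4.93 on control arrays 1 to 4, a 4.13-fold difference (2.05, SE 0.201). It varied least among the mutant arrays. The differences of Ms4a6b, Ms4a6c and Ms4a6d lay within 1 SE of each other at each step of their order. A further probe set each of Ms4a6c, Ms4a6d and Ms4a7 stayed under the filter on every array, with highest values of 2.35, 2.18 and 2.18. Averaging all probe sets of a gene takes those in, and the differences became 1.32 for Ms4a6c, 1.73 for Ms4a6d and 1.02 for Ms4a7.

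The members lie next to each other. In the order of the GRCm38.p6 gene table, the 7 members held places 12 and 14 to 19 of the 21 family genes, with Ms4a4a, not analysed here, at place 13. The other 10 family genes with a probe set lay on both sides, and none was bright enough to test. Of their 12 probe sets, 8 were within 0.5 of the floor on all arrays and only that of Ms4a1 passed 4 on any. Ms4a1, the B cell gene, read 5.44, 3.62, 3.72 and 4.02 on mutant arrays 1 to 4 and 3.53, 4.39, 3.41 and 3.65 on control arrays 1 to 4, so 2 mutant arrays and 1 control array were resolved. Ms4a2 and Ms4a3, a gene of granulocyte and monocyte precursors, which follow Ms4a6d in the order, had highest values of 2.96 and 2.18. The related genes Tmem176a and Tmem176b, which lie elsewhere, differed by 0.08 (SE 0.0826, limma adjusted p = 0.608) and -0.08 (SE 0.0809, adjusted p = 0.621).

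**Figure D2:**
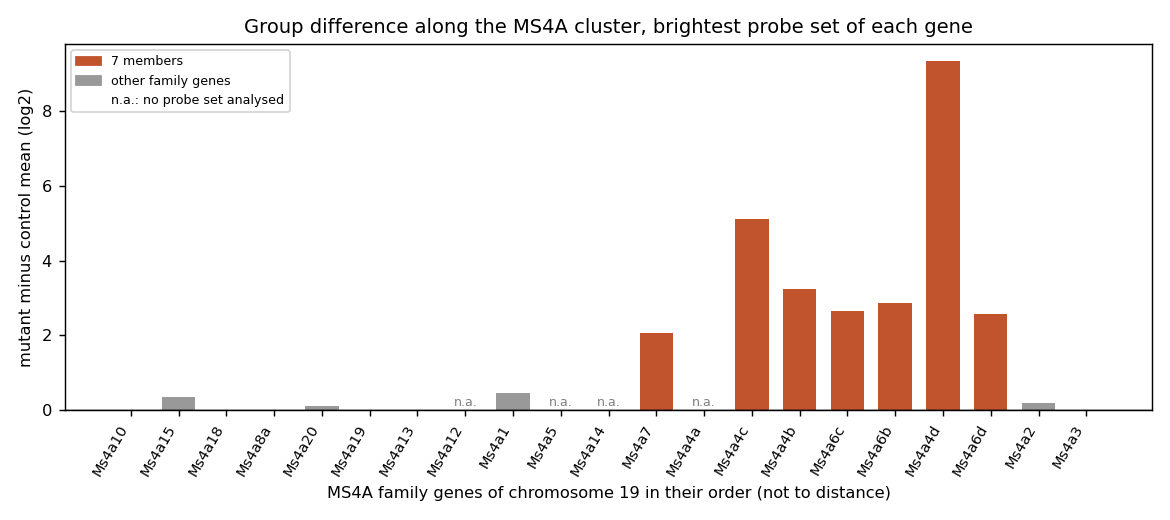
Mutant minus control mean on the log2 scale for the brightest probe set of each MS4A family gene, in their order along chromosome 19 (distances not drawn); orange bars are the 7 members, grey bars other family genes, and n.a. marks genes not analysed here. The members stand side by side with differences from 2.05 to 9.32, and the other genes with a probe set lie at 0.45 or less. The members were chosen on this difference, so nothing is read from the gap between them and the other genes.

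Around the cluster, 2 tested genes passed and 7 did not. Of the 10 protein-coding genes on either side and the genes between the family members, 19 had a probe set and 9 could be tested. Of these 9, 2 rose and none fell, where 2.66% of all tested genes rose. The median difference of the 9 was -0.08. Slc15a3, a lysosomal peptide and histidine transporter 7 genes before the cluster in the table, read 7.42, 7.62, 7.59 and 7.17 on mutant arrays 1 to 4 and 3.85, 3.33, 3.41 and 4.49 on control arrays 1 to 4 (3.68, SE 0.25, limma adjusted p = 4.29e-05). As 3 of its control values were unresolved, the difference with these set to 4 was 3.33, or 10-fold. AW112010, a long noncoding RNA inside the cluster, read 8.35, 7.84, 8.07 and 6.53 against 3.93, 3.78, 3.78 and 3.78 (at least 13-fold higher; 3.88, SE 0.35, limma adjusted p = 0.000305). In both genes the groups were apart, and in both mutant array 4 was the lowest mutant array, as for the members. Ccdc86, the gene just before the cluster, differed by 0.56 (SE 0.218, limma adjusted p = 0.196), and Stx3 and Mrpl16, after it, by -0.18 and 0.01.

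Markers of macrophages and interferon response genes were higher on the same arrays. Of 13 tested genes shared by macrophages and microglia, 12 rose and none fell, with a median difference of 2.02, and their mean was 7.46 to 8.17 on the control and 9.16 to 10.14 on the mutant arrays. The C1q chain C1qa rose by 2.38 (SE 0.24, limma adjusted p = 0.000596), the lysosomal protease Ctss by 2.26 (SE 0.219, adjusted p = 0.000502), the Fc receptor chain Fcer1g by 2.18 (SE 0.23, adjusted p = 0.000813) and the Fc receptor Fcgr3 by 1.98 (SE 0.238, adjusted p = 0.00184). Itgam and Spi1, which are on the same list, stayed under the filter on every array. Of 9 tested microglia markers 4 rose (median 1.15, list mean 5.79 to 6.88 against 7.38 to 7.94). Among them were Aif1, by 3.31 (SE 0.403, adjusted p = 0.00198), and the fractalkine receptor Cx3cr1, by 1.46 (SE 0.2, adjusted p = 0.00413). The 5 that did not pass were Gpr34 at 2.12, P2ry12 at 2.04, P2ry13 at 0.96, Olfml3 at 0.72 and Sall1 at 0.11. Tmem119, Siglech and Slc2a5 stayed under the filter. All 13 shared macrophage genes were lowest on mutant array 4 among the mutant arrays, as were all 10 bright member probe sets; over all tested genes this held for 22.5%, and over the 304 risen genes for 70.7%. In RNA from whole fragments, more cells of a type and more RNA per cell cannot be told apart.

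Of 10 tested markers of border macrophages 3 rose and none fell, with a median of 0.95; 5 rose without mutant array 4, and 1 without control array 2, 3 or 4. Lyve1, a hyaluronan receptor, rose by 1.33 (SE 0.248, limma adjusted p = 0.0214), Folr2, a folate receptor, by 1.81 (SE 0.269, adjusted p = 0.00638) and the platelet factor Pf4 by 0.96 (SE 0.183, adjusted p = 0.0229). The 7 that did not pass included Clec4n at 1.75, F13a1 at 1.08, and the scavenger receptors Cd163 and Mrc1 at 0.93 and 0.68. The others of these were Dab2 at -0.11, Stab1 at -0.2 and Cbr2 at -0.93. Ms4a7 was thus 2.05 higher among markers whose own differences ran from -0.93 for Cbr2 to 1.81 for Folr2.

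Of 35 tested interferon response genes 34 rose and none fell, with a median difference of 4.79 and a list mean of 5.8 to 6.18 on the control and 10.55 to 11.18 on the mutant arrays. Mutant array 4 was the lowest mutant array for 28 of the 35, and the list mean there was 0.48 below that of the other mutant arrays. This drop was 0.79 for the shared macrophage genes and 0.62 to 3.39 for the bright member probe sets. Endothelial markers dropped there by 0.47, with 10 of 12 lowest on that array. Microglia, border macrophage, mast cell and B cell markers dropped by 0.5, 0.6, 0.61 and 1.41. Pericyte, dendritic cell, monocyte and neutrophil markers did not, at -0.04, -0.1, -0.22 and -0.38. The 4 interferon response genes with the smallest p had limma adjusted p-values from 3.17e-08 to 7.42e-07. They were Ifit1 and Zbp1, sensors or effectors against viral RNA and nucleic acids, and Tap1 and Psmb8 of the antigen presentation pathway. Tap1 rose by 4.79 (SE 0.0961) and Psmb8 by 5.12 (SE 0.106). Ifit1 and Zbp1 were unresolved on all controls, and rose by at least 7.86 and 6.09. With all values under 4 set to 4, which touches 12 of the 35 genes, the list's median was 4.66. The part of either list in the member differences was not tested.

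Set against the mean of the shared macrophage genes on the same array, the members separated. Ms4a7 kept a difference of 0.1, with mutant and control arrays overlapping (-2.76 to -2.53 against -3.24 to -2.43). Ms4a6d kept 0.63, Ms4a6c 0.7 and Ms4a6b 0.92, in each case with all mutant arrays above all control arrays. The list genes themselves spread widely around their mean difference of 1.95, from 0.34 for Laptm5 to 2.5 for C1qc. The full difference of Ms4a6d, 2.58, was thus near that of C1qc. The dimmer Ms4a6b probe set gave 0.3, with overlapping groups and unresolved controls. Against the microglia markers, of which 3 of 9 had an unresolved control value, Ms4a7 kept 0.61, Ms4a6d 1.14, Ms4a6c 1.21 and the brighter Ms4a6b probe set 1.43, with the groups apart in each. With the controls at the filter level, Ms4a4d kept at least 5.58 against the shared macrophage genes, and the brighter Ms4a4c probe set at least 1.35. The other Ms4a4c probe set kept at least 0.27, and its groups overlapped with the values as deposited. For Ms4a4b, unresolved on mutant array 4 too, the value with controls at the filter level was -0.22. As deposited it was 1.28 with overlapping groups, so whether Ms4a4b kept a difference is not known. Set against the interferon response mean, whose own difference was 4.84, Ms4a6b, Ms4a6c, Ms4a6d and Ms4a7 were lower by 1.97 to 2.8 on their brighter probe sets. For Ms4a4d no bound can be given there, since controls of some listed genes were unresolved too; with all values under 4 set to 4, Ms4a4d differed by 7.53 and the list mean by 4.65.

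**Figure D3:**
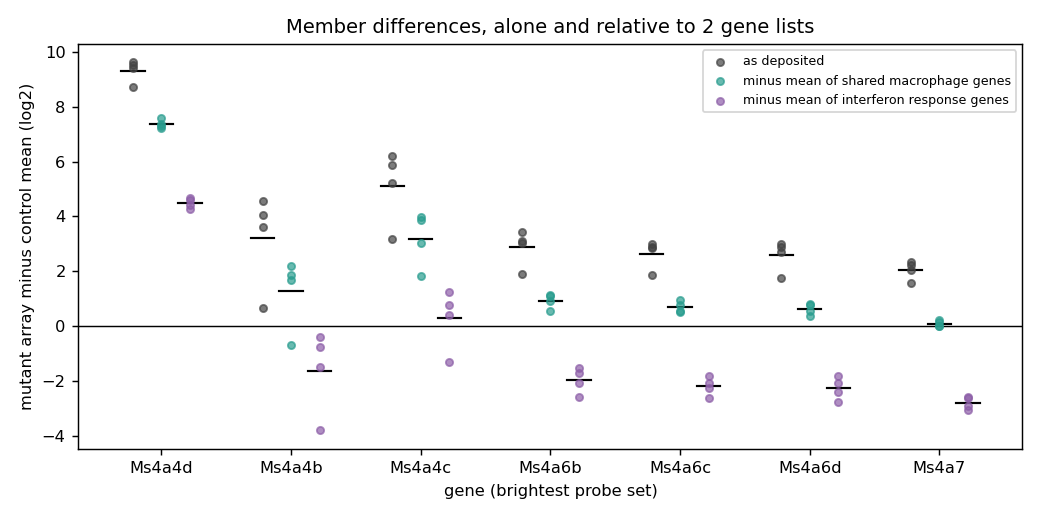
Each mutant array minus the control mean (log2) for the brightest probe set of each member, as deposited (grey), after subtracting the mean of the shared macrophage genes on each array (green) and after subtracting the mean of the interferon response genes (purple); lines are means of the 4 mutant arrays. Ms4a7 falls to 0.1 against the macrophage genes and Ms4a4d stays above 0 against both lists; values of the Ms4a4 genes rest on control arrays under the filter.

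The genes of most similar pattern differed between members. Likeness was the root mean square difference over the 8 arrays, after each gene was centred on its own mean. A small value means like size and like spread, and it is a description without a test. It is set largely by the size of the group difference, on which the members were chosen. Nearness to a gene therefore says little beyond a group difference of like size. Among all tested genes, Ms4a4d came closest to Ifit1 (0.449), Cxcl10 (0.451), Sct (0.871), Iigp1 (0.92) and Ifit3 (1.16), 4 of them interferon response genes and Sct the gene of the hormone secretin. Its own pattern had a root mean square of 4.67. This order depends on control values that are not resolved: with all values under 4 set to 4, a setting added after the data were seen, the nearest were Sct (0.145), Ifit1 (0.223), Ifi27l2a (0.391), Ifit3 (0.429) and Irf7 (0.435). Ms4a4c came closest to the chemokine Ccl5 (0.367), which read 7.64, 8.01, 7.41 and 5.57 on mutant arrays 1 to 4 and 2.18 to 2.69 on the controls, followed by Dhx58, Ifi209, Sp100 and Cmpk2. Ccl5 showed the drop on mutant array 4 that Ms4a4c showed. With values under 4 set to 4, Ccl5 (0.26) and Ifi209 (0.299) led, followed by AW112010, Slfn2 and H2-T24.

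Among the Ms4a6 genes, Ms4a6b and Ms4a6c were each other's nearest gene among all tested genes (0.202), and Ms4a6d stood at place 3 for Ms4a6b (0.268) and at place 2 for Ms4a6c (0.252). Around them stood Cfb, a complement factor, the MHC class I genes H2-K1 and H2-D1, the guanylate-binding protein Gbp3, and Parp12. Ms4a6d came closest to Evi2a (0.183), C1qc (0.187), the inhibitory Fc receptor Fcgr2b (0.208), C1qa (0.223) and the chemokine receptor Ccr1 (0.239), and Ms4a7 to Fcer1g (0.192), Dtx3l (0.196), Samhd1 (0.198), the lysozyme Lyz1 (0.212) and B2m (0.218). C1qc read 10, 9.4, 9.67 and 8.71 on mutant arrays 1 to 4 and 7.34, 6.37, 6.72 and 7.35 on control arrays 1 to 4, which puts control arrays 1 and 4 above 2 and 3, as in Ms4a6d.

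**Figure D4:**
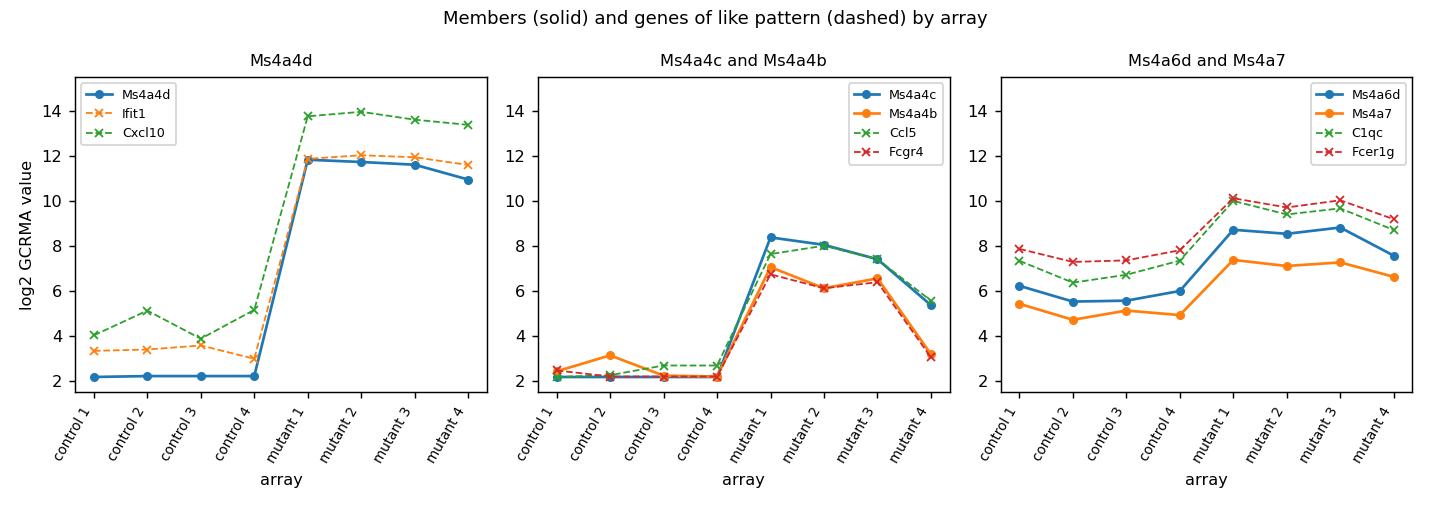
Log2 GCRMA values on the 4 control and 4 mutant arrays of members (solid lines) and of genes with a similar pattern (dashed), in 3 panels; levels of different genes are not comparable. Ms4a4c, Ms4a4b, Ccl5 and Fcgr4 drop on mutant array 4. Ms4a4d and Ifit1 are also lowest there among the mutant arrays, at 10.95 and 11.6. They lie 0.77 and 0.35 below the mean of the other mutant arrays.

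Ms4a4b was compared in the same way with the 11531 other named genes above 4 on at least 3 arrays, a choice made after its values were seen. Its nearest were the Fc receptor Fcgr4 (0.302), which read 6.74, 6.12, 6.39 and 3.05 on mutant arrays 1 to 4, and the chemokine Ccl8 (0.406), at 6.39, 6.7, 6.01 and 3.01. Both were high on mutant arrays 1 to 3 and unresolved on mutant array 4 and on all controls, like Ms4a4b itself. Ifi209 (0.542), Cfb (0.628) and Calhm6 (0.693) came next.

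Lymphocyte markers were mostly at the floor. Of 13 T and NK cell markers with a probe set none could be tested, 11 stayed under the filter on every array, and Cd3d, Cd3e and Cd3g, chains of the T cell receptor complex, had a highest value of 2.18 each. The exceptions were the granzymes of killer cells: Gzma read 8.92, 8, 8.07 and 2.58 on mutant arrays 1 to 4 and 2.22 to 2.53 on the controls, and Gzmb read 4.82 on mutant array 1 and under the filter elsewhere. Gzma was high on the 3 arrays on which Ms4a4b was resolved, and its place among the genes nearest to Ms4a4b was 67. Of 9 B cell markers, 7 stayed under the filter on every array, Cd79a and Pax5 among them at 2.18; Ighm differed by 1.48 (SE 0.501, limma adjusted p = 0.15) and Cd79b by 0.52 (SE 0.329, adjusted p = 0.399), and 1 of the 2 passed without mutant array 4. No dendritic cell marker of 2 tested and no neutrophil marker of 4 passed, with S100a8 at 0.32 and S100a9 at -0.01. Of 3 tested monocyte markers Plac8 rose by 5.74 (SE 0.209, adjusted p = 1.11e-06). Nr4a1, at -0.46 (SE 0.116, adjusted p = 0.0674), and Vcan, at -0.0 (SE 0.429, adjusted p = 0.999), did not pass. Ccr2, the defining receptor of inflammatory monocytes, read at most 2.67.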

How the data were processed

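RNA from microvessels of 8 newborn brains was measured on 1-colour Affymetrix arrays from 6 ug of total RNA each, per the labels' protocols. The deposited values are 1 log2 value for each probe set. The submitters' processing notes name GCRMA as the authors' method, without a version. This method models background from probe sequence, so dim probe sets collect at a floor of 2.18. No depth belongs to arrays; their number, 4 per group, limits precision.

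Groups came from the titles. Of the 45101 probe sets, 34958 had 1 symbol in the platform annotation, 932 several and 9211 none here. A gene was represented by its probe set with the highest mean, and the 11446 genes above 4 on at least 4 arrays entered a two-sided moderated test (limma 3.58.1, functions lmFit and eBayes, under R 4.3.3), with Benjamini-Hochberg adjustment over all of them and a threshold of 0.05. All probe sets above the filter (22310) were fitted likewise. "Bright" means above 4 on at least 3 mutant arrays. Folds against groups wholly under 4 are bounds against 4. Members, gene lists and settings were chosen with earlier results of these data known. Besides all members, the text names the 5 genes nearest in pattern to each tested member, up to 4 genes a list (lowest p first among those called, otherwise the 2 of highest mean) and all chromosome 19 neighbours that passed; further genes were chosen after their values were seen. The gene table of GRCm38.p6 served for names and order. The fit was tested on simulated data. Of 50 genes changed at each size, 28 were recovered at 1.5-fold, 34 at 2-fold, 48 at 4-fold and 50 at 16-fold. Of the 175 genes called there, 15 were false calls. Alternatives were other filters, normalizations, centring, probe set rules, a replicate block, Y-linked genes as a covariate, trend and robust settings, values under 4 set to 4, and leaving out each array.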

Additional observations from a re-analysis of the deposited data

Results flagged for a closer look

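On 4 occasions among 43 groups of 4 arrays, over member probe sets, other MS4A probe sets and list means with a resolved value, a single array lay far from the other arrays of its group; chance gives about 1 in 20. Mutant array 4 was the low array for Ms4a6c, at 7.18, for a probe set of Ms4a6d, at 6.82, and for the mean of the endothelial markers, at 11.63. Control array 2 was the high array for the mean of the pericyte markers, at 10.26.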

How the results depend on the processing

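The members were chosen on the contrast itself, so nothing is read from their calls under other settings. With a filter at 6, Ms4a4c was not tested. The count of all changed genes was 524 and went down to 259 (221 higher, 38 lower) with a replicate block, and from 303 to 608 without each array in turn, the lowest without control array 4 and with 320 without mutant array 3 and 322 without control array 3. Whether the replicate numbers pair the arrays is not known. Deviations from the group means of same-numbered arrays correlated at -0.084, -0.479, -0.201 and 0.303, and none of the 4 mutant arrays matched its own number best. With 4 arrays per group this cannot exclude a pairing. With each array centred on the median of the tested genes, added after the data were seen, the split of changed genes was 336 higher and 115 lower, and with a second quantile normalization 326 and 162. Of border macrophage genes 1 rose with no filter, and 1 to 5 without each array in turn; 7 microglia genes rose with the Y-linked genes as a covariate, and 1 mast cell gene then passed, and 0 to 1 without each array in turn, with 1 only without control array 2. For B cell genes that range was 0 to 1, with 1 only without mutant array 4. With trend and robust settings 2 monocyte genes passed, 1 higher and 1 lower. The causes were not tested. Low signal over background limits the Ms4a4 genes, whose control levels are unknown under 4. Nothing here separates the copies that a probe set may share, and litter, extraction day and scan date are unknown here. The Y-linked genes Eif2s3y, Kdm5d and Uty were under the filter on 2 control arrays and 1 mutant array. The groups may thus differ in sex make-up. With Y-linked genes as a covariate 296 genes rose and 142 fell.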

Other observations

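Mast cell genes varied widely within both groups, and none of the 4 tested passed; 1 did without control array 2. Cpa3, a mast cell protease, read 7.56, 9.7, 9.27 and 7.71 on mutant arrays 1 to 4 and 6.39, 8.18, 4.99 and 6.45 on control arrays 1 to 4, with overlapping groups (2.06, SE 0.723, limma adjusted p = 0.162). Cma1, the protease chymase, read 7.48, 9.46, 9.51 and 8.03 against 5.58, 7.69, 3.81 and 4.71 (3.17, SE 0.83, adjusted p = 0.0774); it is named here after its values were seen. Tpsab1, a tryptase, was resolved on mutant arrays 1 and 2 only, at 4.14 and 8.16. Ms4a2, the MS4A gene of mast cells, stayed at 2.96 or less on all arrays. Kit, a growth factor receptor that mast cells share with other cells, differed by -0.54 (SE 0.182, adjusted p = 0.152).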
